A study of Mus musculus with 4 samples.

Results

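The genes described here encode subunits of the protein complexes whose loss causes Hermansky-Pudlak syndrome, a disorder of pigment, platelets and other tissues. They are Hps1, Hps4, Hps3, Hps5, Hps6, Bloc1s5, Bloc1s6, Dtnbp1, Ap3b1 and Ap3d1, and they were taken by name, not by their values. Their exons were found by matching exon identifiers to the GENCODE M21 annotation, which gave 184 listed exons for the 10 genes, of 226463 exons and 22823 genes in all. Every one of the 10 genes had at least 1 listed exon, and all 10 exceeded 10 RPKM (reads scaled by the exon length in kb and by the aligned reads of the library) on their highest exon in 1 library or more.

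The study induced the melanocyte isoform of Mitf, a transcription factor, in several cell types. It reported that mouse embryonic stem cells resist conversion by Mitf and that the pluripotency factor Oct4 counteracts Mitf there. Its RNA-seq belongs to an earlier step, in which mouse embryonic fibroblasts (MEFs) were turned toward melanocyte-like cells. RNA-seq was made from 1 library in each of 4 conditions, and 3 libraries were analysed here. Dox (-) and Dox (+) are Mitf knock-in MEFs at passage 5, without Dox and after 6 days of Dox. The third library, labelled MEF, was taken by that name as the wild-type MEFs, at passage 3. Its values are not those that another table of the study gives under MEF, so each comparison with it describes the library that carries this label. Primary melanocytes (PMel) were not analysed here. Both knock-in libraries carry the same alleles, a Dox-dependent transactivator in the ROSA26 locus (M2rtTA), a tetO-Mitf transgene at the Col1a1 locus and an mCherry marker. The knock-in MEFs descend from 1 targeted clone of KH2 embryonic stem cells and were cultured from chimeric embryos, which also hold cells of the host. Knock-in cells can be told from these by mCherry and by a puromycin resistance that they also carry, but whether the sequenced cultures were selected in this way is not stated in the sources used here. No Dox-treated wild-type library was part of the design, so an effect of Dox and an effect of Mitf cannot be told apart, and the MEF library differs from the others in both genotype and passage. Replicate spread could not be measured with 1 library for each condition, so no test between conditions was made, and the intervals given cover counting error only.

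Pigment is made in the melanosome, a relative of the lysosome that receives its enzymes from endosomes. BLOC-1 and AP-3 act at early endosomes, where they sort cargo such as Tyrp1 and Tyr (the melanin enzymes) into carriers. BLOC-2 helps to direct these carriers to the maturing melanosome, and BLOC-3 activates Rab32 and Rab38, small GTPases of the same route. The complexes are made in most cell types, and mouse mutants in each of them have a diluted coat colour.

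Mitf itself, taken as its highest exon, was at 1.52 RPKM in MEF, 30.8 in Dox (-) and 1544 in Dox (+), that is, 50.1-fold higher with Dox. The depths recovered from the values were 45000000 reads for MEF and Dox (-) and 44000000 for Dox (+). Of 8 melanocyte markers, 4 exceeded 10 RPKM in Dox (+) and 0 in the other libraries. Their summed level was 4.99 RPKM in MEF, where Tyrp1 and Dct were at 0, 15.0 in Dox (-), where Tyr was at 0, and 275 in Dox (+). Sox10 alone of the 8 was lower in Dox (+), at 1.66 RPKM, than in Dox (-), at 6.69. Of 8 fibroblast markers, 7 exceeded 10 RPKM in MEF and 8 in each of the others, with sums of 18350, 45433 and 11943 RPKM in MEF, Dox (-) and Dox (+). Single markers did not all follow these sums. Of the 8, 5 were higher in Dox (+) than in MEF, and Thy1 alone was higher there than in Dox (-). Dox (-) stood apart by its macrophage markers, of which 10 of 10 were more than 4-fold higher there than in either other library. They summed to 17109 RPKM in Dox (-) against 623 in Dox (+) and 58.4 in MEF, and none was at 0 in any library. Keratinocyte markers summed to 66.6, 8.73 and 32.6 RPKM, with Krt5 at 0 in MEF. Krt14 made most of the sum in Dox (+), at 32.8, 2.12 and 26.9 RPKM in MEF, Dox (-) and Dox (+). Cdh1, at 21.7, 1.08 and 0.697 RPKM, and Trp63, at 6.16, 1.78 and 0.288, were lowest in Dox (+). The others were under 10 RPKM in each library. In such bulk samples, fewer cells of a type and less RNA per cell cannot be told apart, and the part of these other cell types in the values below was not tested.

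The 10 genes covered a wide range of levels, and the same 3 of them led in each library. Summed over the non-overlapping exons of each gene, and so per length, Ap3d1 was at 215 RPKM in Dox (+), Dtnbp1 at 181 and Ap3b1 at 129. Below them came Bloc1s6 at 29.5 RPKM, Hps1 at 20.5, Hps5 at 19.2 and Bloc1s5 at 18.9. The lowest in Dox (+) were Hps4 at 13.8 RPKM, Hps6 at 11.9 and Hps3 at 10.8. The counting intervals of Hps5 and Bloc1s5 overlapped, as did those of Hps6 and Hps3, and those of all other neighbours in this order did not. Reads across junctions may count on both exons, which these intervals do not allow for. The order also depended on the measure. On the median exon in Dox (+), Hps6 at 11.9 RPKM was below Hps3 at 13.3. Ap3d1, Dtnbp1 and Ap3b1 were the highest of the 10 in every library, and Hps6 was the lowest in MEF at 5.79 RPKM and in Dox (-) at 6.03. In Dox (-) the neighbours that overlapped were Hps1 and Bloc1s5. In MEF they were Dtnbp1 and Ap3d1, Hps5 and Bloc1s6, and Bloc1s5 and Hps1.

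**Figure D1:**
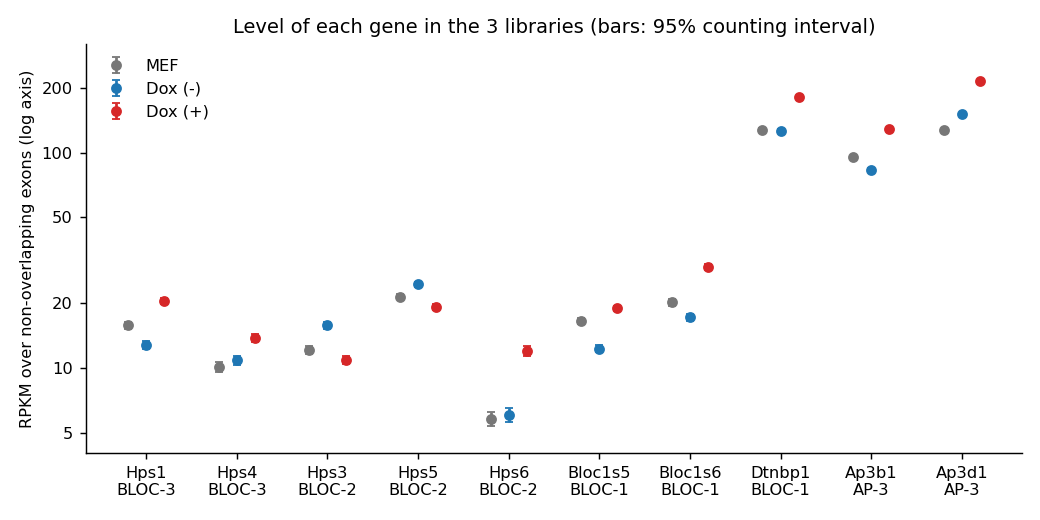
Level of each of the 10 genes in the MEF, Dox (-) and Dox (+) libraries, as RPKM over its non-overlapping exons on a log axis, with 1 point per library and the 95% counting interval as a bar. The AP-3 subunits and Dtnbp1 sit well above the rest, Hps3 and Hps5 are lowest in Dox (+), and the other 8 genes are highest in Dox (+).

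Compared with Dox (-), the Dox (+) library had slightly more RNA from 8 of the 10 genes and less from Hps3 and Hps5, and none passed 2-fold on the highest exon. The level of a gene was taken as its highest exon, which is also how the study defined it. A gene was called where 1 or both of the libraries exceeded 10 RPKM and the levels differed by more than 4-fold. None of the 10 genes was called higher and none lower, where 1.64% of the 13300 genes tested were called higher and 5.41% lower. At 2-fold, again 0 were higher (10.8% of all genes) and 0 lower (11.1%). This count depended on the exon taken, and these shares are for the highest exon only. With the same exon in both libraries the log2 difference of Hps1 was 1.48. On the median exon Bloc1s6 went from 25.5 RPKM in Dox (-) to 56.2 in Dox (+), and Bloc1s5 from 12.3 to 24.9, each more than 2-fold. Hps3 and Hps5 stayed lower by less than 2-fold on both measures. By sign alone 8 of 10 were higher, against 62.6% of all genes. The median log2 difference, after adding a pseudocount of 1 RPKM, was 0.54 for the 10 genes and 0.23 over all genes tested, and 7 of the 10 lay above this general shift.

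**Figure D2:**
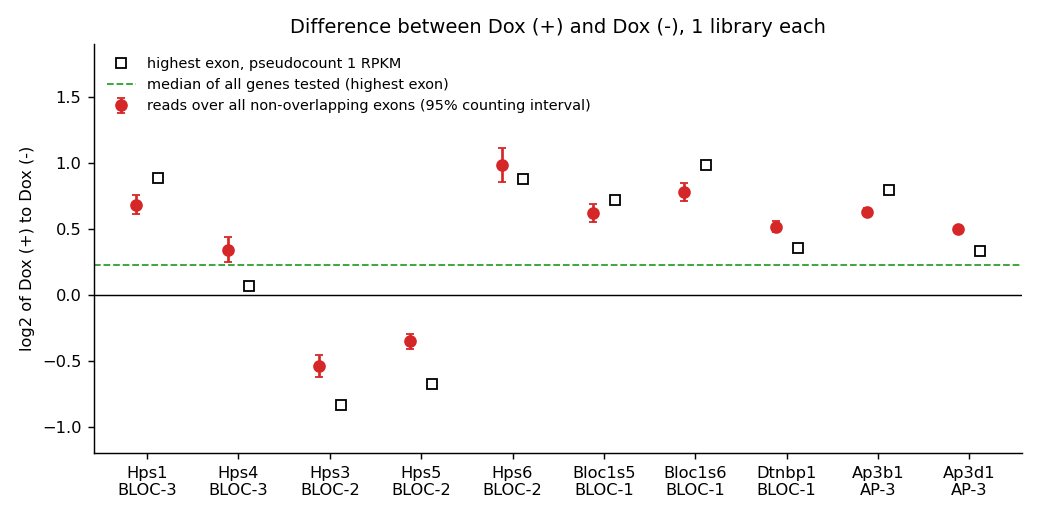
Log2 of Dox (+) to Dox (-) for each gene, from the reads over all non-overlapping exons (red, with 95% counting interval) and from the highest exon (black squares). The dashed line is the median of all genes tested, 0.23, and Hps3 and Hps5 lie below 0 by both measures.

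Because Mitf binds E-boxes, the promoters of the 10 genes were searched for their letters in RefSeq sequence of the GRCm38.p6 build. A window ran from 250 bases before to 50 bases after a start site, and 9 of the 10 genes had one, all but Bloc1s6. The palindrome CACGTG was found in Hps1, Hps3 and Hps5, 3 of 9 genes, and in 8.09% of the 27025 genes with a window. CATGTG, read on both strands, was found in Hps1 alone of the 9 and in 15.9% of all genes. The CLEAR motif, a longer palindrome of lysosomal gene promoters that contains the first motif, was found in 0 of the 9 and in 0.370% of all genes. The stretches that hold these letters are shown, with the E-boxes in capitals, a choice made with the values known. Of the 3 genes Hps3 and Hps5 were lower in Dox (+) than in Dox (-), and Hps1, which holds both motifs, was higher. A link between these letters and the levels was not tested.
Hps1 promoter, chr19:42779969-42780058, minus strand: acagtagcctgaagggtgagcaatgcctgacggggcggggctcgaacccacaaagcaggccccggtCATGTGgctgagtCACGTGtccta
Hps3 promoter, chr3:20035301-20035390, minus strand: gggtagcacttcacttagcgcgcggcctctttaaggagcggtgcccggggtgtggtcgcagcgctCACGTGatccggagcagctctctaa
Hps5 promoter, chr7:46796042-46796131, minus strand: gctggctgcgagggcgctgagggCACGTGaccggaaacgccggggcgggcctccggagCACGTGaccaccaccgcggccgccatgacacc
The CACGTG of Hps1 begins 1 base before the RefSeq start site and that of Hps3 begins 15 bases before it. Those of Hps5 begin 227 and 192 bases before it. GENCODE ends Hps5 at position 46796064 of chromosome 7 on its 5′ side, which lies next to the E-box at 46796068 to 46796073. A match in these windows is a description of letters, and no binding was measured in the files used here.

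BLOC-3 is the dimer of Hps1 and Hps4. Hps1, on the minus strand of chromosome 19 (42755105 to 42779978), reached 76.7 RPKM on its highest exon in MEF, 39.4 in Dox (-) and 73.6 in Dox (+). It was lowest in Dox (-). The highest exon was exon 20, of 62 bp, in MEF and Dox (-) and exon 17, of 50 bp, in Dox (+), so these values compare different exons. The log2 difference of Dox (+) to Dox (-) was 0.88, or 0.66 above the general shift, and 1.48 where exon 17 was taken in both libraries. On exon 20 the ratio of Dox (+) to Dox (-) was 1.52 (1.18 to 1.95). The ratio of all reads was 1.61 (95% counting interval 1.53 to 1.69). Of its 30 listed exons 28 had a ratio above 1, and the interval excluded 1 in 23 of these. The largest ratio, 2.86 (2.10 to 3.93), was on exon 17, which went from 58 reads in Dox (-) to 162 in Dox (+). The smallest was on exon 25, a long alternative exon of 1227 bp that overlaps the other exon with a ratio below 1. It held few reads for its length, 1.92 RPKM in MEF, 1.77 in Dox (-) and 1.02 in Dox (+), a ratio of 0.57 (0.40 to 0.81). This exon thus moved the opposite way to the rest of the gene. The first 3 exons of Hps1 overlap Gm16244 on the opposite strand, and whether the authors' counting used strand is not stated in the sources used here.

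Hps4, the other subunit of BLOC-3, lies on the plus strand of chromosome 5 (112343083 to 112378414). Its highest exon, of 37 bp, was at 31.2 RPKM in MEF, 44.4 in Dox (-) and 46.7 in Dox (+). The log2 difference of Dox (+) to Dox (-) was 0.07, which became -0.16 against the general shift, so that its direction depended on the scaling. Over all its reads the ratio was 1.27 (1.19 to 1.36). Of the 16 listed exons 14 were higher in Dox (+), but the counting interval excluded 1 in 6 only, and in 0 on the lower side. Hps1 and Hps4 thus differed from each other in the size of their difference on the highest exon, and less so over all reads.

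BLOC-2 consists of Hps3, Hps5 and Hps6, and its members went in opposite directions. Hps3, the gene of the cocoa mouse, lies on the minus strand of chromosome 3 (19995945 to 20035315). Its highest exon was at 28.4 RPKM in MEF, 43.5 in Dox (-) and 24.0 in Dox (+). It was thus highest in Dox (-) and lowest in Dox (+), at a log2 difference of -0.83 between them, or -1.06 against the general shift. The reads over all exons gave a ratio of 0.69 (0.65 to 0.73), and 17 of 20 exons were below 1, with the interval below 1 in 11 and above 1 in 0. Hps3 exons near the 5′ end differed less than those near the 3′ end. The 492 bp exon 4 had 8.81 RPKM in Dox (-) and 7.11 in Dox (+), while the 91 bp exon 18 had 43.5 and 24.0. Exon 16 had the lowest ratio, 0.50 (0.39 to 0.64), and overlaps the ceruloplasmin gene Cp on the opposite strand. It was the highest exon of Hps3 in MEF. Leaving it out did not change the log2 difference of Dox (+) to Dox (-), and that of Dox (+) to MEF went from -0.24 to -0.22.

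Hps5, on the minus strand of chromosome 7 (46760466 to 46796064), was at 127 RPKM in MEF, 138 in Dox (-) and 86.2 in Dox (+) on an exon of 24 bp. This order, with Dox (+) lowest, was that of Hps3 too. The log2 difference of Dox (+) to Dox (-) was -0.67, or -0.90 against the general shift, and the ratio of all reads was 0.78 (0.75 to 0.82). Of its 36 listed exons 31 were below 1, and the interval lay below 1 in 17 and above it in 0. Exons near the 5′ end of Hps5 lay around 1, from 0.68 (0.24 to 1.81) on exon 1 to 1.24 (0.99 to 1.56) on exon 6. The last exon, of 985 bp, was at 17.7 RPKM in Dox (-) and 11.2 in Dox (+), a ratio of 0.63 (0.56 to 0.71).

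Hps6, the remaining subunit and the gene of the ruby-eye mouse, is a single exon of 2666 bp on the plus strand of chromosome 19 (46003508 to 46006173). It was at 5.79 RPKM in MEF, 6.03 in Dox (-) and 11.9 in Dox (+), so both libraries without Dox were close and Dox (+) was well above them. The ratio of Dox (+) to Dox (-) was 1.98 (1.81 to 2.16), from 724 and 1399 reads, and the log2 difference was 0.88. Among the 10 genes this was the largest ratio over all reads. Hps6 had no exon to compare along the gene.

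BLOC-1 is represented by Bloc1s5 (muted), Bloc1s6 (pallidin) and Dtnbp1 (dysbindin). Bloc1s5, on the minus strand of chromosome 13 (38592842 to 38635109), had 48.2 RPKM in MEF, 32.4 in Dox (-) and 53.9 in Dox (+) on its highest exon. Dox (-) was thus the lowest of the 3, and the log2 difference of Dox (+) to Dox (-) was 0.72, with a ratio of all reads of 1.54 (1.47 to 1.61). All 5 exons were higher, with intervals above 1. The ratio was 1.51 on the 5188 bp last exon, which held most of the reads, and 4.77 (1.94 to 14.1) on the first, from 6 and 28 reads. That first exon overlaps Gm47400 on the opposite strand.

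Bloc1s6 lies on the plus strand of chromosome 2 (122738503 to 122749475) and had the largest log2 difference of the 10 where the highest exon was taken in each library. With 1 exon taken in both, that with the highest value in either library, it was at 0.99, below the 1.48 of Hps1. It was at 64.9 RPKM in MEF, 57.3 in Dox (-) and 114 in Dox (+), a log2 difference of 0.98 between the last 2, or 0.76 above the general shift. The ratio of all reads was smaller, 1.71 (1.63 to 1.80). All 5 exons were higher in Dox (+), with intervals above 1, from 3.02 (1.86 to 5.08) on the first exon to 1.60 on the last, of 2965 bp. The pair of coding exons that give its highest values are shown, since the gene-level value rests on them. They follow each other in the transcript, and their ratios were 1.96 (1.67 to 2.31) and 2.0 (1.70 to 2.37).
Bloc1s6 exon 3, chr2:122744126-122744213, plus strand: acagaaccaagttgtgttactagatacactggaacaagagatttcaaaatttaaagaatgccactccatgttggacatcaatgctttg
Bloc1s6 exon 4, chr2:122746055-122746141, plus strand: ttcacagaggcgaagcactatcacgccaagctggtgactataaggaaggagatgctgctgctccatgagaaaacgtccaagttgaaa
Of 64 other trafficking genes compared with Bloc1s6 over the 3 libraries, the closest in pattern were Ap1s1, Ap2b1 and Borcs8. Their distances, on log2 levels centred per gene, were 0.12, 0.13 and 0.22, and with only 3 libraries this is a description.

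Dtnbp1, on the minus strand of chromosome 13 (44922075 to 45002147), had its highest values on its shortest exons. Its highest exon, of only 11 bp, was at 1156 RPKM in MEF, 1002 in Dox (-) and 1285 in Dox (+), from 572, 496 and 622 reads. Its RPKM was far above the 127, 126 and 181 RPKM of the whole gene. Reads that overlap so short an exon only in part may count on it, which was not tested. The exon-level ratio of Dox (+) to Dox (-) also differed along Dtnbp1. It was between 1.75 and 2.14 on the first 5 exons, 1.44 (1.31 to 1.58) on exon 6 and between 1.26 and 1.28 on all later exons. An exon from each side of this step, the 51 bp exon 3 and the 11 bp exon 8, is given.
Dtnbp1 exon 3, chr13:44992019-44992069, minus strand: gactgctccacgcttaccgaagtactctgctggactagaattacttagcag
Dtnbp1 exon 8, chr13:44931247-44931257, minus strand: gaagcagtgtg
The first of these was at 174 RPKM in MEF, 190 in Dox (-) and 332 in Dox (+), a ratio of 1.75 (1.56 to 1.98), and the second had a ratio of 1.28 (1.14 to 1.45). On the highest exon the log2 difference was 0.36, or 0.13 above the general shift, and on the highest exon of at least 50 bp it was 0.81. Over all reads the ratio was 1.43 (1.39 to 1.47). All 13 exons were higher in Dox (+), with intervals above 1.

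AP-3 is an adaptor of endosomal coats, and Ap3b1 and Ap3d1 encode its large subunits, mutated in the pearl and mocha mice. Ap3b1, on the plus strand of chromosome 13 (94358960 to 94566317), was at 177 RPKM in MEF, 147 in Dox (-) and 256 in Dox (+) on its highest exon. By this measure Dox (+) was highest and Dox (-) lowest, with a log2 difference of 0.79 between them and a ratio of all reads of 1.55 (1.52 to 1.58). The highest exon was exon 25 in MEF and exon 6 in the other libraries. On exon 6 MEF was lowest, at 129 RPKM, while over all non-overlapping exons Dox (-) was lowest, at 83.5 against 95.2 in MEF. All 27 exons were higher with intervals above 1, and the ratio ran from 2.22 (1.70 to 2.91) on the first exon to 1.31 (1.23 to 1.40) on the last. Ap3d1, on the minus strand of chromosome 10 (80706956 to 80742264), was at 379 RPKM in MEF, 400 in Dox (-) and 506 in Dox (+). Its log2 difference of Dox (+) to Dox (-) was 0.34, or 0.11 above the general shift, and the ratio of all reads was 1.42 (1.40 to 1.44). All 31 exons were higher, from 1.89 (1.70 to 2.11) on exon 14 to 1.11 (1.07 to 1.15) on the last. Both large subunits were thus higher in Dox (+) on every listed exon, and both differed least on the last.

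Of the 184 exons some are overlapping versions that hold the same reads, and 155 do not overlap. Of these 155, 119 had a higher RPKM in Dox (+) than in Dox (-), or 76.8%, and 36 had a lower one, where 58.7% of the 178737 listed exons with more than 3 reads in both libraries were higher. The counting interval lay above 1 in 104 of the 155, or 67.1%, and below 1 in 23, or 14.8%, where the shares over all exons were 41.1% and 26%. An interval narrows with the reads of an exon, so these shares depend on the level as well. Of the 167 listed exons over 10 RPKM in either library, overlapping versions included, 9 were more than 2-fold higher in Dox (+), or 5.39%, and 0 were more than 2-fold lower. The share over all exons tested was 11.1% higher and 10.4% lower. The exons of a gene share a library and often reads across junctions, so they are not replicates of each other.

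**Figure D3:**
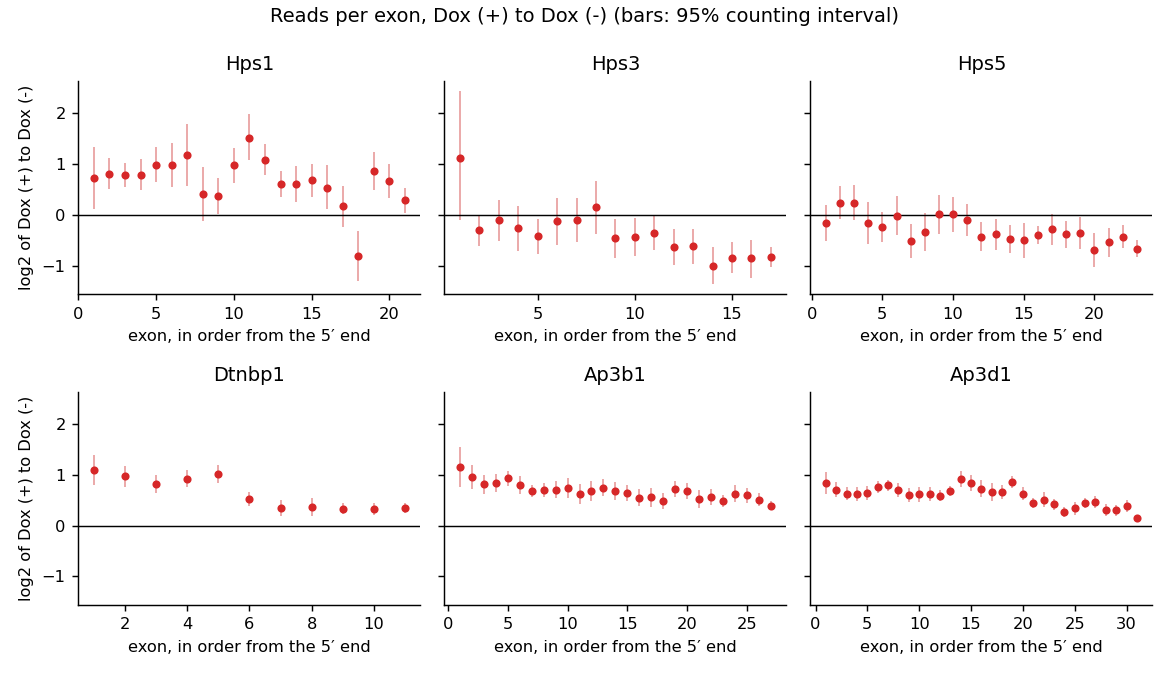
Log2 ratio of reads in Dox (+) to Dox (-) for each non-overlapping exon of Hps1, Hps3, Hps5, Dtnbp1, Ap3b1 and Ap3d1, in order from the 5′ end, with 95% counting intervals. Ratios decline towards the 3′ end in Hps3, Hps5, Dtnbp1, Ap3b1 and Ap3d1, with a step after the fifth exon of Dtnbp1. In Hps1 they are highest on a middle exon and lower on the 3′ side than on the 5′ side.

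This slope along the genes was shared by most genes of the libraries. When the exons of a gene were split at the middle into a 5′ and a 3′ side, the log2 ratio of Dox (+) to Dox (-) was higher on the 5′ side in 87.1% of 9581 genes, with a median difference between the sides of 0.25. The same held in 7 of the 8 of these 10 genes that had at least 4 exons and 50 reads on each side in both libraries, with a median of 0.35. In Dtnbp1 the log2 ratio was 0.94 on the 5′ side and 0.34 on the 3′ side, in Hps3 -0.19 and -0.73, and in Hps5 -0.10 and -0.48. In Hps1 it was 0.80 and 0.54. Hps4 went the other way, with 0.30 and 0.40. No gene of the 8 changed direction between its sides. Coverage along transcripts thus differed between the libraries as a whole, and its part in the sizes given above was not tested.

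**Figure D4:**
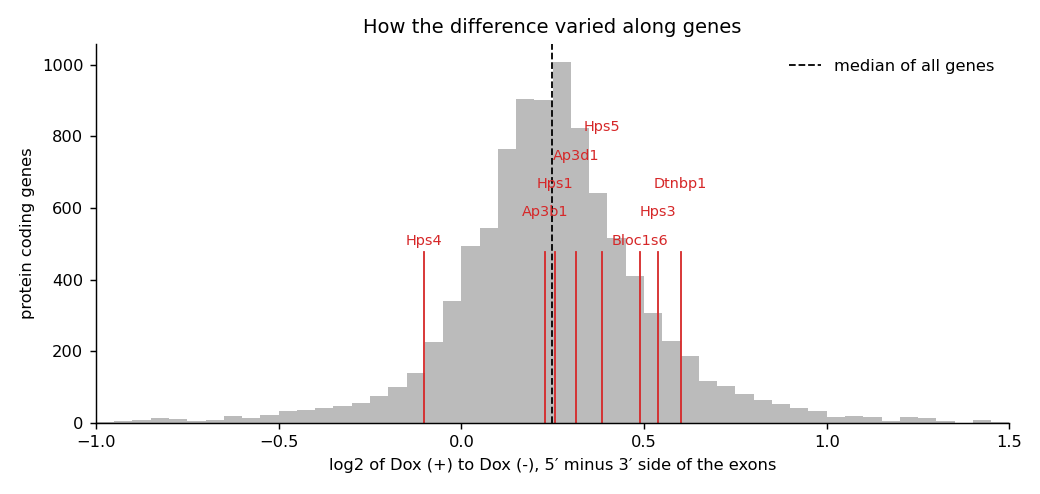
Distribution over protein coding genes of the log2 ratio of Dox (+) to Dox (-) on the 5′ side of the exons minus that on the 3′ side, with the median of all genes (0.25) dashed and 8 of the 10 genes as red lines; genes beyond the axis are not drawn. Hps4 alone of the 8 lies below 0, and Dtnbp1 is farthest to the right.

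Against the MEF library, Dox (+) again had no called gene among the 10, where 6.56% of 12935 genes were called higher and 3.4% lower. At 2-fold 1 of 10 was higher, Hps6 at 2.06-fold, and 0 were lower, where 20.2% of all genes were higher and 8.98% lower. Hps6 exceeded 10 RPKM in Dox (+) alone, so it could enter this count, and those against Dox (-), only as higher. The median log2 difference of the 10 genes was 0.29 and that of all genes tested 0.27, and 7 of 10 were higher against 63.3% of all genes. The comparison shares the Dox (+) library with the one above, and the next shares a library with each. On the highest exon Hps6 (log2 0.93), Bloc1s6 (0.81), Hps4 (0.57) and Ap3b1 (0.53) had the largest differences, followed by Ap3d1 at 0.42. This order depended on the exon taken. With the same exon in both libraries Ap3b1 was at 0.99, Bloc1s6 at 0.95, Hps1 at -0.36 and Hps3 at -0.49. Hps5 (-0.55) and Hps3 (-0.24) were lower in Dox (+), but on the median of their exons and on their 5′ exons alone these signs turned. Hps1, at -0.06, turned positive over all its reads, with a ratio of 1.30 (1.24 to 1.37), and Bloc1s5 (0.16) and Dtnbp1 (0.15) turned negative once the median ratio of expressed genes was set to 1. Ap3d1 differed more over all reads than on its highest exon, with a ratio of 1.69 (1.67 to 1.72), and 16 of its 31 exons were more than 2-fold higher. Of all 166 exons over 10 RPKM, 29 were more than 2-fold higher, or 17.5%, and 0 were lower, where 28.5% of all exons were higher and 8.03% lower. The difference between gene sides was larger here, with a median of 0.46 and 89.6% of genes above 0, and 8 of 9 of the 10 genes that could be split were above 0.

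Between the untreated libraries, Dox (-) and MEF, the 10 genes differed little. No gene was called, where 8.26% of 13227 genes were called higher in Dox (-) and 1.21% lower, and at 2-fold there were 0 in either direction, where 17.3% were higher and 7.93% lower. Hps6 was under 10 RPKM in both libraries and was not tested. The median log2 difference of the other 9 was -0.18, against 0.01 over all genes, and 4 were higher, where 50.6% of all genes were. Hps1 (log2 -0.94) and Bloc1s5 (-0.56) were lowest in Dox (-) relative to MEF, and Hps3 (0.60) and Hps4 (0.50) highest. Over all reads Hps1 had a ratio of 0.81 (0.77 to 0.86), Bloc1s5 0.74 (0.71 to 0.78) and Hps3 1.30 (1.23 to 1.37). For Hps4 the ratio was 1.08 (1.00 to 1.16), and its sign turned on the median of its exons and on its 5′ exons alone. Of 161 exons over 10 RPKM 0 differed by more than 2-fold, where 22.3% of all exons were higher in Dox (-) and 5.35% lower. Of all genes split, 77.5% had the higher log2 ratio on the 5′ side.

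Other subunits of the same complexes and related adaptors were listed for comparison, and their log2 differences of Dox (+) to Dox (-) on the highest exon are given. Of 5 other BLOC-1 subunits 4 were tested and all 4 were higher, with a median of 0.46, from Snapin (0.12) to Bloc1s3 (0.65). Against the general shift Snapin was at -0.10. Of the other AP-3 subunits 4 of 5 were tested, with a median of 0.15. The sigma subunit Ap3s2 was highest at 0.60, and the mu subunit Ap3m1 was lowest at -0.48, at 195 RPKM in MEF, 255 in Dox (-) and 183 in Dox (+). On the highest exon the subunits of AP-3 thus did not all go one way, with and without the rescaling. On the median of its listed exons Ap3m1 was instead higher with Dox, at 17.2 RPKM in Dox (-) and 22.5 in Dox (+). Ap3s1 was likewise at 27.6 and 35.2 RPKM on this median, and Ap3s2 and Ap3m2 were higher on both measures. The split among the AP-3 subunits therefore depended on the exon taken.

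BORC, which shares subunits with BLOC-1 and positions lysosomes, had a median of 0.56 over its 5 own subunits, from Borcs5 (0.12, or -0.11 against the general shift) to Borcs8 (1.00). Borcs8 went from 130 to 261 RPKM and passed 2-fold. The list for AP-1, an adaptor of the trans-Golgi and endosomes, had a median of 0.50 over 7 of 9 genes tested. Among the 7 was Ap1ar, which is not a subunit of AP-1. The sigma subunits of AP-1 stood at both ends, with Ap1s1 at 0.86 and Ap1s2 at -1.09. Ap1s2 was at 101 RPKM in MEF, 291 in Dox (-) and 136 in Dox (+). AP-2, the adaptor of clathrin at the plasma membrane, had a median of 0.57 over 5 genes, from Ap2m1 (-0.41) to Ap2b1 (0.93). The highest exon of Ap2m1 was a short one, at 1811 RPKM from 478 reads in Dox (+). On the median of its exons Ap2m1 went the other way, from 100 RPKM in Dox (-) to 123 in Dox (+). HOPS and CORVET tether endosomes and lysosomes before fusion, and their list also held Vps33b and Vipas39, which are not subunits of either. This list had a median of 0.49 over 10 genes, from Vps41 (-0.09) to Vps8 (0.99), and 8 of 10 were higher. The highest exon of Vps8 was also short, at 451 RPKM from 119 reads in Dox (+). Its median exon was at 40.0 RPKM in Dox (-) and 60.2 in Dox (+). None of these genes was called at 4-fold in this comparison.

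Of 15 Rabs, SNAREs and other proteins of the route, 11 were tested, with a median of 0.18. Rab32, a GTPase that BLOC-3 activates, was lowest of these at -0.43, at 46.0 RPKM in MEF, 62.7 in Dox (-) and 46.4 in Dox (+). The lipid kinase Pi4k2a was highest at 0.77. Rab38 was under 10 RPKM in both knock-in libraries, at 7.04 in Dox (-) and 5.34 in Dox (+), and at 18.4 in MEF. Among 12 cargo proteins 7 were tested, with a median of 0.11, and 1 was called, Tyrp1, at 0 RPKM in MEF, 0.520 in Dox (-) and 110 in Dox (+), a log2 difference of 6.19. The other melanin enzymes were under the threshold in each library. Tyr was at 2.37 RPKM in Dox (+), and Dct was at 0.798 in Dox (-) and 0.900 in Dox (+).

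**Figure D5:**
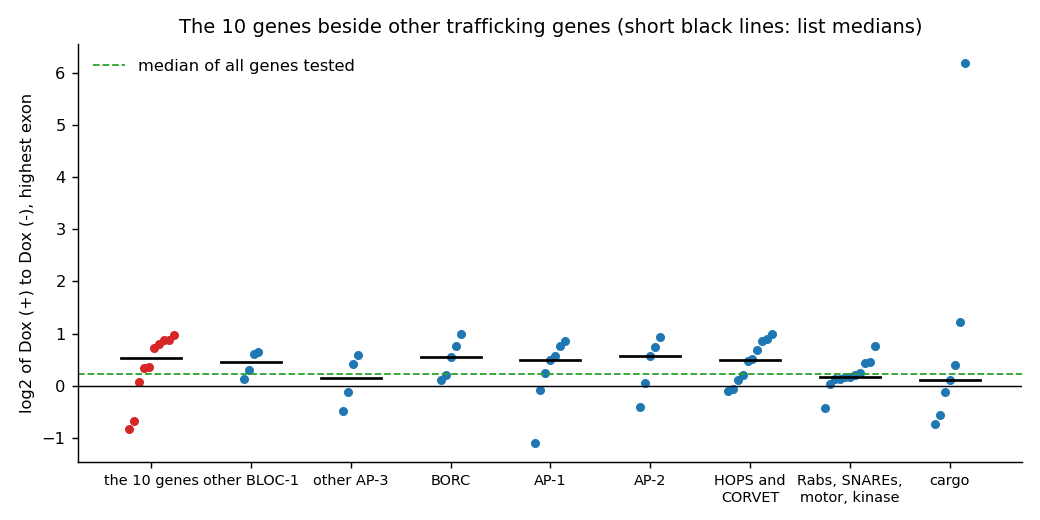
Log2 difference of Dox (+) to Dox (-) on the highest exon for the 10 genes (red) and the tested genes of each comparison list (blue), with 1 point per gene, list medians as short black lines and the median of all genes dashed. Apart from Tyrp1 at 6.19 in the cargo list, the points lie between -1.09 (Ap1s2) and 1.23 (Pmel).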

How the data were processed

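Poly(A) RNA was sequenced from 1 library per condition. The authors aligned reads with TopHat2 2.0.10 to mm10, used bedtools to count those on each Ensembl exon, and deposited the counts as RPKM. The methods name a filter to protein coding, pseudogene and lincRNA exons and a later one on RPKM. Which of them shaped the deposited list, and whether counting used strand, is not given in the sources used here. Columns were assigned to libraries by name. The 1 column whose name matched no label was not used, so PMel was not analysed here. The MEF column was matched by that name, although its values differ from those under MEF in another table of the study.

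Exons were mapped with GENCODE M21 (mm10), and 6586 of 234718 identifiers had no match. Reads were recovered with a whole-number depth per library, searched between 20 and 80 in units of the RPKM scale. Between 97.2% and 97.4% of the values under 200 reads were then within 0.05 of a whole number. At this depth 3 reads on an exon of 150 bp are 0.444 to 0.455 RPKM. Ratios of reads have exact binomial intervals of 95%. Reads across junctions may count on both exons. A gene's level was its highest exon RPKM, and log2 differences used a pseudocount of 1, which understates those of low genes. The 4-fold rule was tested on simulated data for Dox (+) against Dox (-), with 13006 genes tested. It called 99 of 100 genes changed 8-fold in the right direction and 5 unchanged genes. Both simulated libraries were drawn from the Dox (-) reads with counting error alone. These counts therefore do not give the error of the rule where cultures or coverage along genes differ. Every one of the 10 genes is named, and of each other list the called genes, or else those with the highest and lowest log2 difference. Rab38, Tyr, Dct, Ap3s1, Ap3m2 and the single marker genes were named after their values were seen, and median exons of listed genes were added then. The 10 genes, the lists and the tests were chosen with earlier results of these data known. Rab9a and Vamp7 had no exon under these symbols and were not analysed here. Alternatives changed the exon summary, thresholds, pseudocount and scaling. Python 3.11.15, pandas 2.3.3, NumPy 2.4.6, SciPy 1.17.1 and matplotlib 3.10.9 were used.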

Additional observations from a re-analysis of the deposited data

How the results depend on the processing

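Settings were changed 1 at a time, so the 2-fold threshold was tried on the highest exon only, and the other exon summaries at 4-fold only. In Dox (+) against Dox (-) no alternative called any of the 10 genes, and Hps4 was the one gene that changed sign, on rescaling. Their median log2 difference of 0.54 became 0.66 on the median exon, 0.31 after rescaling to a common median ratio, 0.76 on the 5′ exons, 0.37 on the 3′ exons and 0.76 on exons of at least 50 bp. In Dox (+) against MEF the median of 0.29 became 0.61 on the median exon, 0.43 on pooled reads, -0.11 after rescaling, when Hps6 fell under the threshold and 9 genes were left, 0.018 after rescaling with all 10 kept, 0.74 on the 5′ exons and 0.44 on exons of at least 50 bp, and 1 gene was higher at 2-fold. In Dox (-) against MEF the median of -0.18 became -0.034 on the median exon, -0.012 on pooled reads, -0.063 at a threshold of 1 RPKM and with no filter, 0.074 on the 5′ exons and -0.0069 on exons of at least 50 bp. The cause of these moves was not tested. With the same exon in both libraries Hps1 went from 0.88 to 1.48 in Dox (+) against Dox (-). The split into sides, the length limit, the rescaling with all 10 kept and leaving out exons that overlap another gene were chosen after seeing the data, and the last changed no sign of any of the 10 genes. Single-gene values under alternatives were set against the counting error of the gene's ratio over all reads. Changes of threshold, which cannot alter these values, were left out. Of the values, 131 moved by no more than this error and 152 by more. A value from 1 exon or 1 side of a gene rests on fewer reads and has a wider error of its own. These counts therefore do not show which values moved beyond their own error.

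No paired analysis was possible because each condition had 1 library, and leaving out a replicate was not possible either. The planned comparisons with PMel were not run. Counting error was widest on short and low exons, and spread between cultures was not measured.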
